A study of Homo sapiens with 16 samples.

Results

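The genes described here are 45 genes of S phase and DNA replication, chosen by name from a fixed list and found in the gene column of all 16 libraries, out of 28207 human genes. They were measured by RNA sequencing of total RNA in U2OS, a human osteosarcoma cell line of mesenchymal origin. Each library carries a number (zdna1, zdna2, zdna3 or zdna4) and an arm (CC or CL), which the labels enter as the genotype, and each of the 8 combinations has 2 replicates. The labels give no wording for the numbers or the arms, no treatment and no time, so no group is called a control and no group's allele or construct is known here. Whether the replicates came from separate cultures is not stated either, so each p-value measures only the spread between these libraries, which may be technical.

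Before a cell can copy its DNA, origins are licensed: the origin recognition complex (ORC), CDC6 and CDT1 load the ring of MCM2 to MCM7 onto DNA in G1. At the start of S phase the ring is activated as a helicase by CDC45 and the GINS complex, DNA polymerase alpha with primase lays down primers, and polymerases delta and epsilon extend them on the sliding clamp PCNA, which is loaded by replication factor C. Many of these genes are known targets of E2F transcription factors, which switch them on as cells pass from G1 into S phase, so in growing cells their messages rise and fall with the cell cycle.

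Shown here are the 250 bases before the RefSeq start of POLA1, CDT1 and LIG1, 3 genes called between numbers on few reads that hold a match to an E2F pattern. POLA1 was low in zdna3, and CDT1 and LIG1 were low in zdna2. TYMS, called between the arms, also has a match, 39 bases before its start, and is not shown. The pattern is common among the 45 genes, and whether it has a part in any call was not tested. RFC1, which also differed between numbers, is shown as a called gene without a match. Sequences are from GRCh38.p14, 5′ to 3′ on the gene's strand, at chrX:24693668-24693917 (plus) for POLA1, chr16:88803539-88803788 (plus) for CDT1, chr19:48170345-48170594 (minus) for LIG1 and chr4:39366363-39366612 (minus) for RFC1. Capitals mark a match to an E2F pattern on either strand.
POLA1: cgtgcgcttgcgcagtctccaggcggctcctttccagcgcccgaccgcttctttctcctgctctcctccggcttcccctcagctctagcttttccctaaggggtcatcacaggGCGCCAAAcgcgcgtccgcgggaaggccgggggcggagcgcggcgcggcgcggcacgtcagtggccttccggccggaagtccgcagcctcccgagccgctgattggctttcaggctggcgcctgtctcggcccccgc
CDT1: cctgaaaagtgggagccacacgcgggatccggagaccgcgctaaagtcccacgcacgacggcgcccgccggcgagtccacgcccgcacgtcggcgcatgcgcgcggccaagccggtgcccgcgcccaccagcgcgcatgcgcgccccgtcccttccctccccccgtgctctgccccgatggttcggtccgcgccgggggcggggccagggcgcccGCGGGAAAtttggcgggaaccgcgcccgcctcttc
LIG1: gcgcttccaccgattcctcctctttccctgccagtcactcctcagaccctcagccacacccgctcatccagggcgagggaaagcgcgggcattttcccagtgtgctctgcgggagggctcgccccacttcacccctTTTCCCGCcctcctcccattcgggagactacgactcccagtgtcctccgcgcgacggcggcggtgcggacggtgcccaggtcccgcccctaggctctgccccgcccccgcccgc
RFC1: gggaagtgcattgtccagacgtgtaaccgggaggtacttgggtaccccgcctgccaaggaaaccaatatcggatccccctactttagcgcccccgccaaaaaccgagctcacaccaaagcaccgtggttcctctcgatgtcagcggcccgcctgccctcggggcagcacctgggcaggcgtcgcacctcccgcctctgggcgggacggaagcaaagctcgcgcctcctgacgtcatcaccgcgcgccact
The match begins 137 bases before the start in POLA1, 35 before it in CDT1 and 114 before it in LIG1. The letters searched were TTTCCCGC, TTTGGCGC, TTTGCCGC and TTTCGCGC, on both strands, over the full windows of 300 bases (250 before to 50 after a start). RefSeq gave windows for 41 of the 45 genes, with MCM4, MCM5, RPA2 and CCNE2 not matched. At least 1 E2F pattern was present in 19 of these 41 genes, 46.3%, and in 3.99% of all 27305 genes with a window. The genes with a match ran over every step of replication: CDC6, CDT1, MCM2, MCM3, MCM6 and MCM7 of licensing, GINS1 and GINS2 of the helicase, PCNA and RFC3, POLA1, POLA2 and POLE, LIG1, TYMS, E2F1 itself, UHRF1 and DNMT1, and CLSPN. The CCAAT box, letters CCAAT, stood in 65.9% of the genes against 39.7% of all, and the E-box CACGTG, the letters that MYC with MAX is known to bind, in 14.6% (CHAF1A, FEN1, MCM2, MCM7, RPA1 and TIMELESS) against 8.77%. The GC box GGGCGG stood in 78% against 48.3%. Runs of alternating C and G (CGCGCG or GCGCGC), of the kind of sequence that can adopt the left-handed Z form, stood in 73.2% against 25.7%; these can overlap with E2F matches that end in GCGC. Windows were not matched for base composition, so its part in these shares was not tested, and none of the matches shows that a factor was bound or a structure formed.

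Depth sets what can be seen in these libraries. Reads on human genes ran from 39335 to 310187 per library and reads on the 45 genes from 172 to 1670, so 1 read was worth 3.201 to 26.99 CPM, the scale on which the human-gene reads of each library are set to a common total after adjustment by TMM factors. The shallowest libraries were those of zdna4 CC, followed by zdna3 CC, and the deepest those of zdna4 CL. The zdna4 CC libraries also stood apart in reads on 401 olfactory receptor genes, which bone-lineage cells do not normally express: these summed, relative to the library total without TMM factors, to 1471 ± 30.3 CPM (SD, n = 2) there and to 55.3 to 396 CPM in the other 14 libraries. COL1A1, COL5A1, SPARC, VIM, FN1 and THBS1 of the 12 mesenchymal and osteoblast markers had reads in all 16 libraries, RUNX2 in 15, and BGLAP and IBSP had none in any. COL1A2, ALPL and SPP1 were near absent, with 10, 15 and 7 reads in all libraries together. Of 6 epithelial markers KRT8 and KRT18 had reads in all 16 libraries and CDH1 only 3 reads in all, and the 6 blood cell markers had 9 reads together, with CD3E, CD14, HBA1 and HBB at 0.

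The most abundant of the 45 genes, per kilobase of exon and averaged over the libraries, was MCM7, a subunit of the helicase ring, at 137 CPM per kb. It was followed by RRM2, the regulated subunit of ribonucleotide reductase (111), TYMS, thymidylate synthase (99.5), PCNA, the sliding clamp (84.7), and MCM4 (64.3). The lowest was CCNE2, a cyclin that drives entry into S phase, at 3.50 CPM per kb. It shares 1521 of its 2726 exon bases with INTS8 on the opposite strand, and the counting did not use strand. PCNA-AS1, which shares 373 exon bases with PCNA, had 0 reads beside 271 for PCNA. Reads on shared bases were thus apparently not counted for both genes, so the 17 reads of CCNE2 over all libraries can be too few. Levels per kb use the full exon length. Those of CCNE2, PCNA and TYMS, which shares 966 exon bases with ENOSF1, can therefore be too low in this order.

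**Figure D1:**
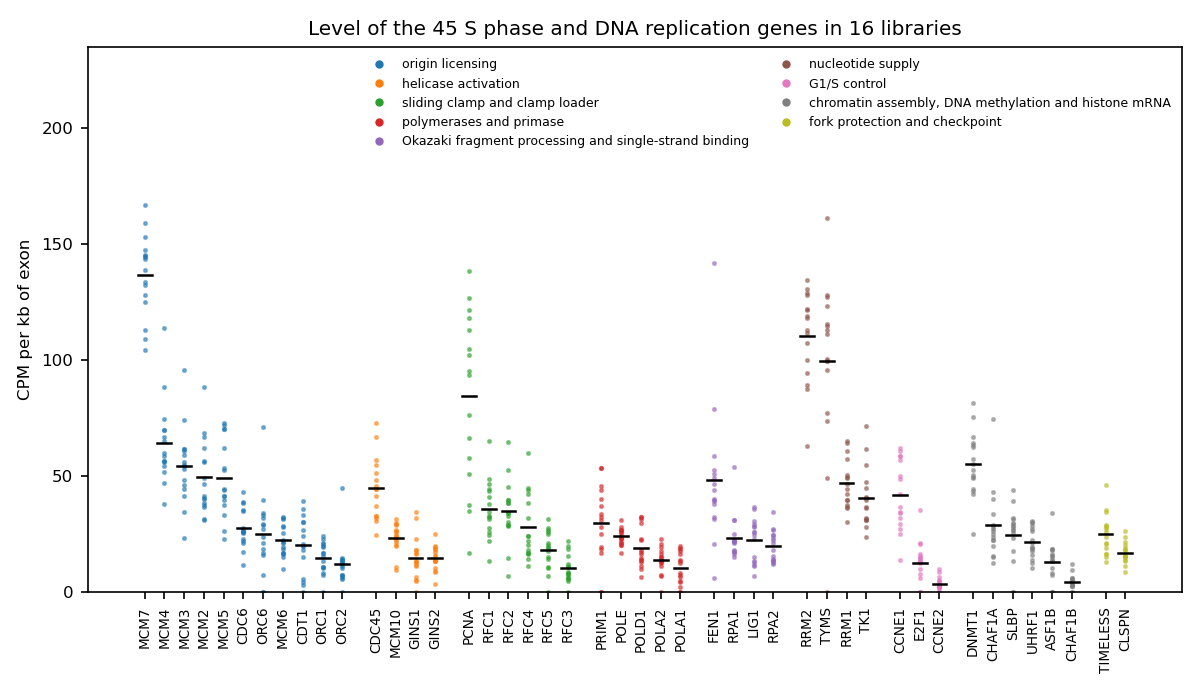
Level of each of the 45 genes in CPM per kb of exon (vertical axis), grouped by role (colour), with 1 point per library and a black line at the mean of 16 libraries. MCM7, RRM2, TYMS and PCNA have the highest means, and CCNE2 and CHAF1B the lowest.

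Partners in 1 complex were not at 1 level. Within the helicase ring the mean ran from 22.3 CPM per kb for MCM6 to 137 for MCM7, with MCM5 at 49.1, MCM2 at 49.5, MCM3 at 54.4 and MCM4 at 64.3. Among the 5 subunits of the clamp loader, RFC1, the large subunit, had 35.8 CPM per kb and RFC3 had 10.3. RRM1, the partner of RRM2, had 47.0 CPM per kb. Of DNA polymerase alpha and primase, POLA1, the catalytic subunit, had 10.4 CPM per kb, POLA2 had 13.7 and the primase subunit PRIM1 had 30.0, while POLE, the catalytic subunit of polymerase epsilon, had 24.1. CCNE1 stood at 41.9 CPM per kb, so the cyclin E message counted here was mostly CCNE1.

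On the scale of CPM, which sets the counting error, RRM2 had the highest mean, 501 ± 88.0 (SD over 16 libraries), with 285 CPM in its lowest library, a median of 524 and 610 CPM in its highest. MCM7 followed at 425 ± 54.8 CPM. DNMT1, which copies DNA methylation behind the fork, had 292 CPM, MCM4 had 268, MCM3 and POLE had 189 each, RFC1 had 174, MCM2 had 171, MCM5 had 170 and RRM1 had 168. Other leading genes of their roles were MCM10, which helps to activate the helicase, at 107 CPM, RPA1, the large subunit of the single-strand binding protein, at 114, CCNE1 at 81.9 and CLSPN, a checkpoint adaptor at the fork, at 158. At the low end 14 of the 45 genes had a mean under 50 CPM and were not tested: ORC1, ORC6, GINS2, RFC3, RFC4, RFC5, POLA2, PRIM1, RPA2, CCNE2, E2F1, CHAF1B, ASF1B and SLBP. GINS1 lay just inside that limit with 51.0 CPM and POLA2 just outside with 48.6. The other 31 genes were tested among 4632 human genes, and all counts below are of these 31.

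The median spread of the tested genes was that of all genes tested, but their range was narrower. The chi-square of their reads per degree of freedom over all libraries, where 1 is pure counting error, had a median of 1.27, and it was 1.27 over all tested genes too. It ran from 0.392 for POLE, the steadiest, to 2.35 for FEN1, the flap endonuclease that trims Okazaki fragments. FEN1 went from 12.2 CPM (1 read) in one zdna3 CL library to 286 CPM in a zdna3 CC library.

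**Figure D2:**
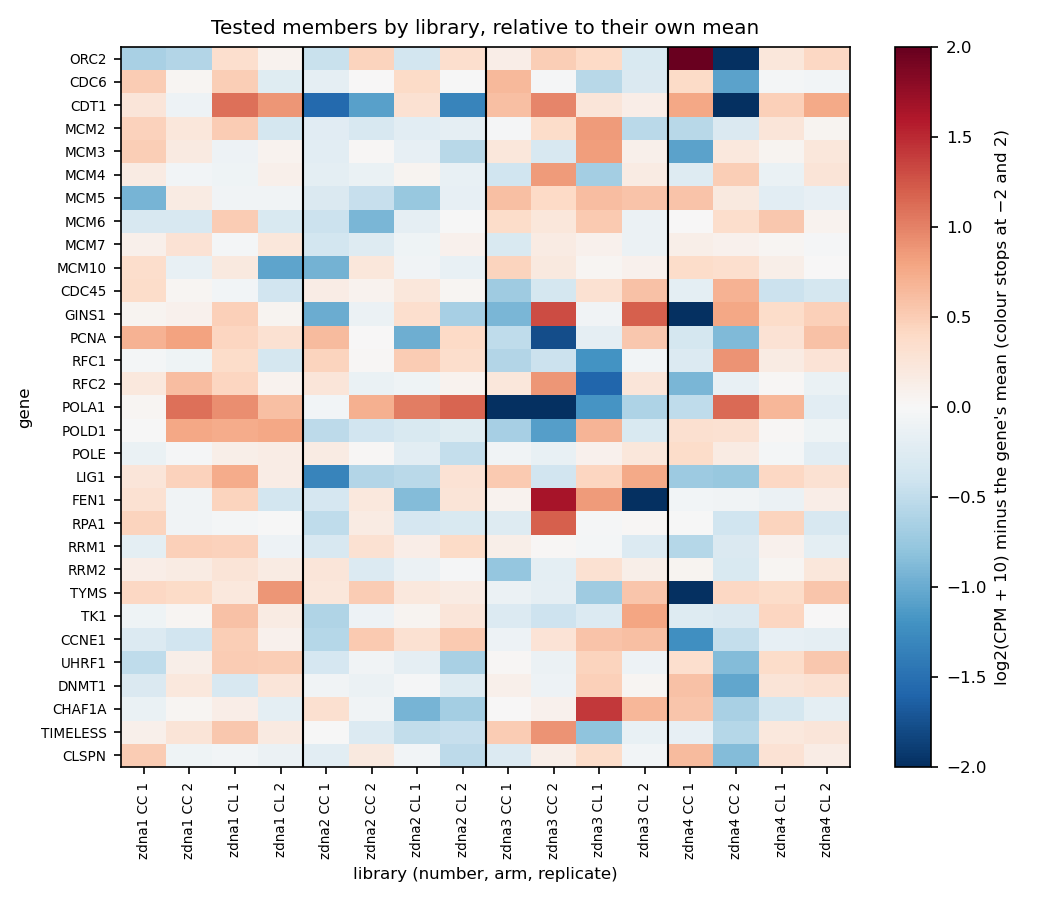
Each tested gene (rows, in order of role) in each of the 16 libraries (columns, split by number), as log2(CPM + 10) minus the gene's own mean, from blue (lower) to red (higher). Most of the deepest colours lie in the shallow libraries of zdna3 and of zdna4 CC, and POLA1 is blue across the 4 zdna3 libraries.

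The first comparison holds the number and sets CL against CC. Differences were fitted with limma on log2(CPM + 10) in 1 model of all libraries, and a gene was called at a Benjamini-Hochberg adjusted p under 0.05 over all genes tested. In bulk RNA fewer cells in a phase and less message per cell cannot be told apart, so no level here gives a share of cells in S phase. In zdna1, zdna2 and zdna3 none of the 31 genes was called, where limma called 0.756%, 0.173% and 0.0864% of all genes tested, and at an unadjusted p under 0.05 there were 1, 2 and 4 of them, beside 10.6%, 6.58% and 6.56% of all genes. edgeR's quasi-likelihood test also called 0 in each. The median log2 difference of the 31 genes was 0.06 in zdna1, 0.02 in zdna2 and 0.09 in zdna3, beside 0.00, -0.01 and 0.06 over all genes tested. Leaving out 1 library turned each of these medians to just under 0 (zdna1 CL replicate 1, zdna2 CC replicate 1 and zdna3 CC replicate 1). In zdna3 RRM2 had 285 and 429 CPM in CC and 610 and 535 CPM in CL. Its log2 difference was 0.69 (SE 0.28) and was not called (limma adjusted p = 0.571).

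In zdna4, 1 gene was called, higher in CL, where limma called 1.17% of all genes tested and 0.907% higher. It was TYMS, the enzyme that makes thymidylate for DNA synthesis (hg19 chr18:657653-673577, plus strand). Its zdna4 CC libraries had 0 and 185 CPM and its CL libraries 179 and 205 CPM, so 1 CC library at 0 reads set the difference, and the other lay between the CL libraries. The log2 difference was 2.19 (SE 0.57, limma adjusted p = 0.0393), it was 0.08 (limma adjusted p = 0.994) without the CC library at 0 reads, and edgeR's adjusted p was 0.467. A count of 0 in that library allows up to 81.0 CPM. TYMS shares 966 exon bases with ENOSF1 on the other strand, which had 61 reads in all libraries beside 357 for TYMS. Reads on the shared bases cannot be told apart without strand and can be missing from both counts.

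The median log2 difference in zdna4 was 0.33 over the 31 genes, 21 of them positive, and 0.08 over all genes tested. Without zdna4 CC replicate 2 it was 0.08, with 18 positive and 0.05 over all genes, and without zdna4 CL replicate 2 it was 0.50. It was 0.52 over 43 genes with a filter of 20 CPM and 0.77 over all 45 with no filter. All 4 genes of nucleotide supply and all 3 of Okazaki fragment processing were positive and the 3 polymerase genes negative, but only TYMS passed the test. This comparison rests on the zdna4 CC libraries, which had the fewest reads and the olfactory receptor reads given above; the part these play in it was not tested. Averaged over the 4 numbers, 0 of the 31 genes were called by limma or by edgeR, where limma called 0.432% of all genes tested, with 4 at an unadjusted p under 0.05: LIG1, TYMS, CCNE1 and RRM2. That cut was passed by 9.28% of all genes. LIG1, the ligase that joins Okazaki fragments, had the smallest p of these, with a log2 difference of 0.64 (SE 0.24, limma adjusted p = 0.335). No gene of the 31 passed the limma test that the arm difference is unequal between numbers, which called 0.864% of all genes, and 3 had an unadjusted p under 0.05, as had 10.4% of all genes.

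The second comparison averages the arms and sets the numbers against each other, 4 libraries against 4, and here calls were made. Over the 4 numbers limma called 3 of the 31 genes, POLA1, CDT1 and LIG1, and 8.85% of all genes tested, so the share of the 31 lies near that of the background. edgeR called 5, adding MCM5 and POLD1, and 10.6% of all genes. The 6 pairs of numbers share libraries, so their calls are not independent of one another.

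**Figure D3:**
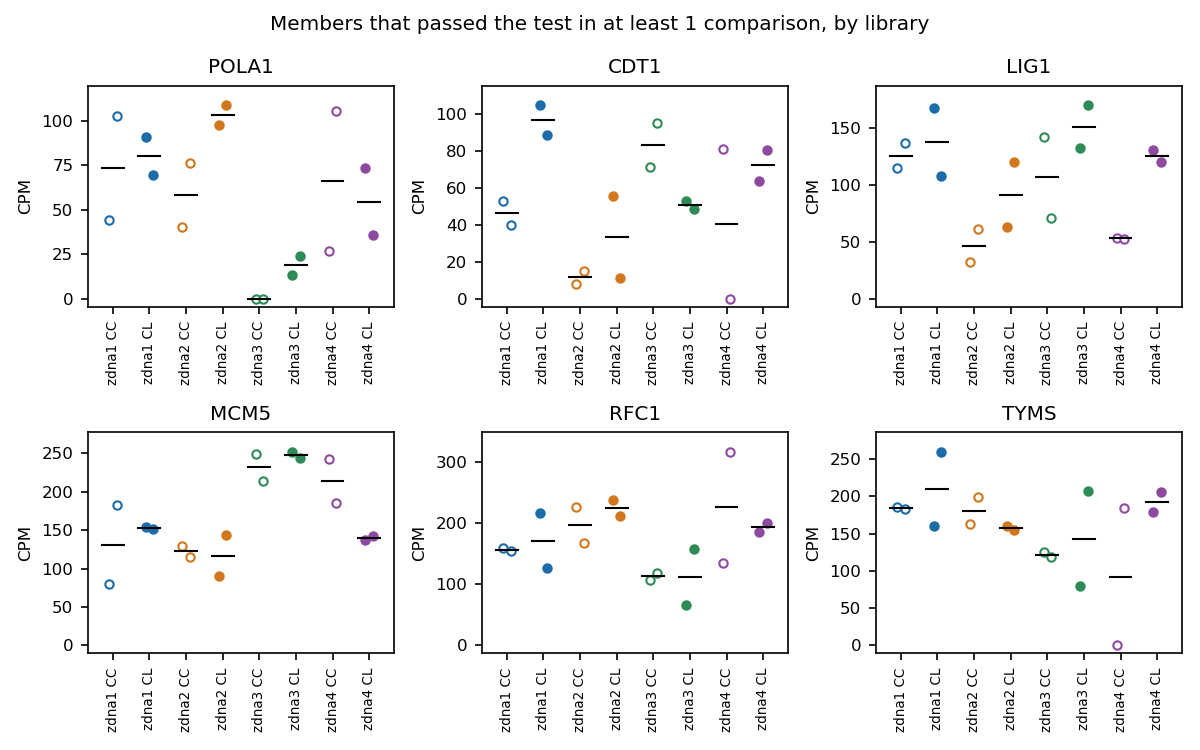
CPM in each library (1 point each, open for CC and filled for CL) of the 6 genes called in at least 1 comparison, with a black line at the mean of each group of 2. POLA1 lies between 0 and 24.3 CPM in the 4 zdna3 libraries, below every other library, and TYMS is at 0 in 1 zdna4 CC library.

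POLA1, the catalytic subunit of the polymerase that starts each new strand (hg19 chrX:24712035-25015102, plus strand), was low in zdna3. It had 44.3 and 103 CPM in zdna1 CC, 90.8 and 69.7 in zdna1 CL, 40.6 and 76.4 in zdna2 CC and 97.7 and 109 in zdna2 CL. In zdna3 it had 0 CPM in both CC libraries and 13.3 and 24.3 CPM in the CL libraries, which are 1 and 2 reads. In zdna4 it had 27.0 CPM (1 read) and 106 CPM in CC and 73.6 and 35.7 in CL. The 4 zdna3 libraries lay below all 12 others, the nearest of which was the zdna4 CC library with 1 read. Non-overlap downwards was found for 4.71% of all genes tested against zdna1 and for 5.87% against zdna2. Only 3 reads were thus counted among 260550 human-gene reads of zdna3, 47 among 584132 of zdna1 and 48 among 548866 of zdna2.

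Against zdna1 the log2 difference of POLA1 in zdna3 was -2.32 (SE 0.49, limma adjusted p = 0.00131), the only call among the 31 genes there, where limma called 4.49% of all genes tested and 2.27% lower. Against zdna2 it was -2.36 (SE 0.49, limma adjusted p = 0.000963). In reads per total the ratio of zdna3 to zdna1 was 0.143 with a 95% interval of 0.0285 to 0.445, and that of zdna3 to zdna2 was 0.132 (0.0262 to 0.409); these intervals cover counting error only. Both calls held without any 1 library of the pair. Within the CL libraries alone the log2 difference to zdna1 was -1.67 (adjusted p = 0.147) and to zdna2 -2.001 (adjusted p = 0.0502), and within CC it was -2.97 (adjusted p = 0.0321) and -2.73 (adjusted p = 0.0556), all by limma. Across the pair of zero libraries of zdna3 CC a count of 0 allows up to 30.6 CPM.

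Against zdna3, POLA1 was higher in zdna4 by a log2 difference of 1.92 (SE 0.59, limma adjusted p = 0.0435), the only call among the 31, where limma called 4.75% of all genes and 1.84% higher. That call was lost in 7 of the 8 fits that left out 1 library, all but the one without zdna4 CL replicate 2 (limma adjusted p from 0.0246 to 0.309). Within the CL libraries, which leave out the shallow zdna4 CC pair, the difference was 1.13 (limma adjusted p = 0.261). Of the 31 genes 12 were positive in this pair, with a median log2 difference of -0.14 beside -0.01 over all genes. The sign of that median was not stable: it was 0.02 without zdna4 CC replicate 2, 0.07 within the CL libraries, 0.01 with DESeq2 and -0.01 with edgeR. Without any other 1 library it lay between -0.14 and -0.05.

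The neighbours of POLA1 on the X chromosome, and those of LIG1 and MCM5 given below, were looked at after the values of these genes had been seen. EIF2S3, a translation initiation factor subunit within 1 Mb of POLA1, had 146 ± 26.7 CPM in zdna1, 164 ± 21.7 in zdna2, 88.4 ± 46.8 in zdna3 and 150 ± 62.4 in zdna4 (SD, n = 4). ZFX, a zinc finger gene, had 67.5 ± 12.6, 56.9 ± 19.3, 46.1 ± 26.9 and 51.9 ± 32.9 CPM. The means of both were lowest in zdna3, but by much less than for POLA1. POLA2 and PRIM1, which encode partners of POLA1 in the same complex, were under the limit for testing.

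CDT1, the licensing factor that loads the MCM ring (hg19 chr16:88870197-88875666, plus strand), was low in zdna2. It had 53.2 and 39.9 CPM in zdna1 CC, 105 and 88.7 in zdna1 CL, 8.11 and 15.3 in zdna2 CC and 55.8 and 11.5 in zdna2 CL. In zdna3 it had 71.3 and 95.3 CPM in CC and 53.0 and 48.7 in CL, and in zdna4 it had 81.0 and 0 in CC and 64.0 and 80.4 in CL. The zdna2 libraries other than CL replicate 1 lay under every zdna1 library, and that one within their range. The log2 difference of zdna2 to zdna1 was -1.45 (SE 0.37, limma adjusted p = 0.0229). It rests on 13 reads against 42, a ratio of 0.329 (95% interval 0.162 to 0.626).

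LIG1 (hg19 chr19:48618702-48673860, minus strand) was the other gene called lower in zdna2 than in zdna1, so 2 of the 31 were called lower and none higher, where limma called 2.5% of all genes and 1.71% lower. It had 115 and 137 CPM in zdna1 CC and 168 and 108 in zdna1 CL, against 32.4 and 61.1 in zdna2 CC and 62.8 and 120 in zdna2 CL. In zdna3 it had 143 and 71.4 CPM in CC and 133 and 170 in CL, and in zdna4 it had 54.0 and 52.8 in CC and 131 and 121 in CL. Its groups in zdna1 and zdna2 overlapped through 1 zdna2 CL library. The log2 difference was -0.94 (SE 0.25, limma adjusted p = 0.0285), from 42 reads against 78, a ratio of 0.573 (0.384 to 0.844). Some tested neighbours within 1 Mb were also lower in zdna2. GYS1 had mean levels of 129.5 CPM in zdna1 and 67.3 in zdna2, NUCB1 112 and 64.9, and NOP53 167.5 and 107. GRWD1 and PPP1R15A went the other way, from 87.0 to 112 CPM and from 224 to 295. Whether the call is particular to LIG1 was not tested.

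Neither call of zdna2 against zdna1 is firm to the choice of libraries. CDT1 lost its call without zdna1 CC replicate 1, either zdna1 CL replicate, zdna2 CC replicate 1 or zdna2 CL replicate 2, with limma adjusted p from 0.0629 to 0.179. LIG1 lost its call without either zdna1 CC replicate, zdna1 CL replicate 1, zdna2 CC replicate 1 or zdna2 CL replicate 1, with limma adjusted p from 0.067 to 0.199.

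Below these calls, most of the 31 genes leaned one way between zdna2 and zdna1. The log2 difference was negative for 26 of the 31, with a median of -0.26, where the median over all genes was 0.00 and 50.3% of all genes were positive. The median stayed negative in each of the 8 fits without 1 library, from -0.34 to -0.18, and in each arm alone, at -0.24 in CC and -0.28 in CL. With the filter lowered to 20 CPM it was -0.17 over 43 genes, of which 31 were negative, and with no filter -0.16 over all 45. Of the 9 tested licensing genes 8 were negative, as were all 3 genes of Okazaki fragment processing, all 4 of nucleotide supply, all 3 of chromatin assembly and DNA methylation and both of fork protection. In helicase activation, the clamp and its loader and the polymerases, 1 of 3 genes each was positive. CCNE1, the only tested gene of G1/S control, was positive too (0.21). RFC1 of the clamp loader had a ratio of reads per total of 1.34 (95% interval 1.02 to 1.77). POLD1, the catalytic subunit of polymerase delta, had -0.93 (SE 0.30, limma adjusted p = 0.0816) and was called by edgeR (adjusted p = 0.0407), and its 4 zdna2 libraries lay under its 4 zdna1 libraries. TIMELESS, of the fork protection complex, had -0.58 (SE 0.22, limma adjusted p = 0.157), also with no overlap. Such non-overlap downwards was found for these 2 of the 31 genes and for 3.65% of all genes tested. MCM7 had -0.30 (SE 0.12, limma adjusted p = 0.208).

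Summed over the 6 genes of the helicase ring, the level was 1357 ± 47.5 CPM in zdna1, 1096 ± 64.4 in zdna2, 1451 ± 194 in zdna3 and 1323 ± 109 in zdna4 (SD, n = 4). The highest zdna2 library, at 1168 CPM, lay under the lowest of the other 12, at 1187 CPM. How often the sum of other genes parts the libraries in this way was not tested. All 45 genes together summed to 5417 ± 259 CPM in zdna1, 4617 ± 91.9 in zdna2, 5221 ± 503 in zdna3 and 4992 ± 409 in zdna4. The zdna2 libraries reached 4717 CPM and overlapped with those of zdna3 and zdna4 but not with those of zdna1, which began at 5178. Taking the mean of each tested gene, zdna2 was the lowest number for 20 of the 31 and zdna1 the highest for 13. These were not counted over all genes tested, so whether they are particular to the 31 is not known.

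**Figure D4:**
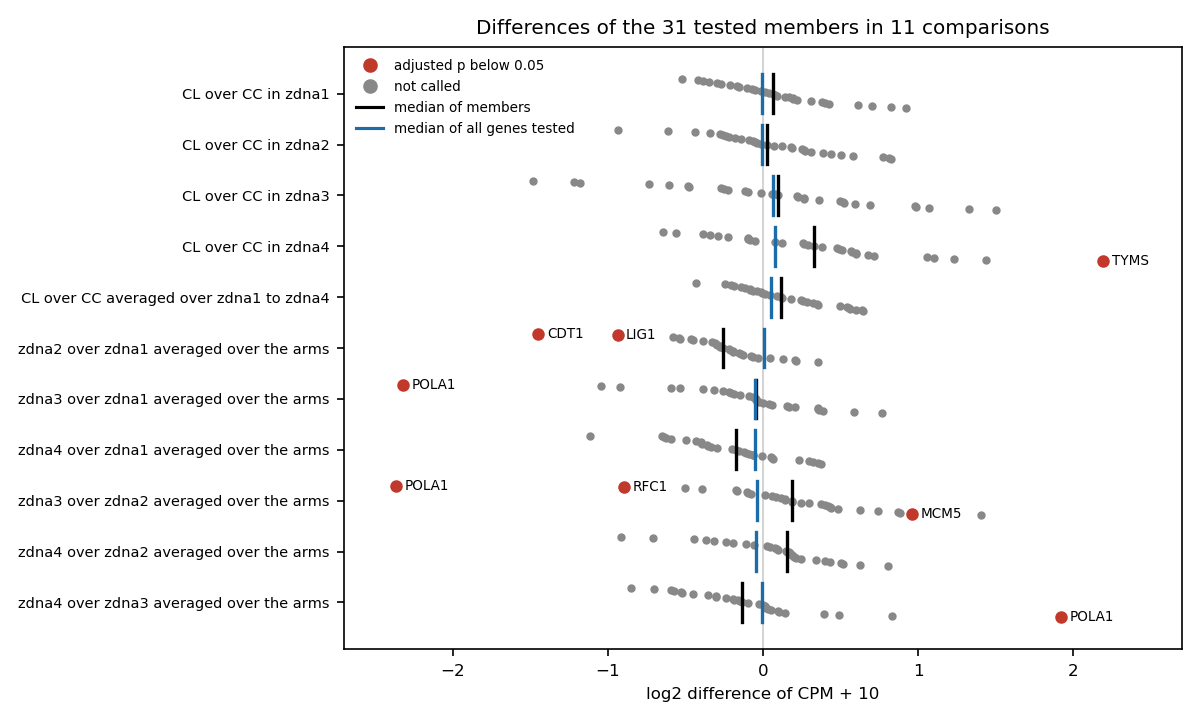
Log2 difference of CPM + 10 (horizontal axis) of the 31 tested genes in 11 comparisons (vertical axis), with called genes in red and named, the median of the 31 genes in black and the median of all genes tested in blue. The 31 genes lie around the median of all genes in most comparisons, and their median is -0.26 in zdna2 over zdna1.

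Between zdna3 and zdna2, limma called 3 of the 31 genes, 1 higher and 2 lower, and 6% of all genes, 2.81% higher and 3.2% lower. The lower genes were POLA1 and RFC1 and the higher gene MCM5. MCM5, a subunit of the helicase ring (hg19 chr22:35796133-35821424, plus strand), had 79.8 and 183 CPM in zdna1 CC and 154 and 152 in zdna1 CL. It had 130 and 115 CPM in zdna2 CC, 90.8 and 143 in zdna2 CL. In zdna3 it had 250 and 214 CPM in CC and 252 and 243 in CL, and in zdna4 it had 243 and 185 in CC and 138 and 143 in CL. Every zdna3 library lay above every zdna1 and zdna2 library. Such non-overlap upwards was found for 5.14% of all genes tested against zdna1 and for 6.54% against zdna2. The log2 difference of zdna3 to zdna2 was 0.96 (SE 0.27, limma adjusted p = 0.0225), from 62 reads against 69, a ratio of reads per total of 1.89 (95% interval 1.32 to 2.71). Against zdna1 it was 0.77 (SE 0.27, limma adjusted p = 0.0942).

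The direction of MCM5 depends on the scale. On the scale of the values as deposited, on which the median of all genes tested is shifted by -1.36 (log2) in zdna3 over zdna2, its difference was -0.48, so MCM5 stood higher relative to other genes and not in that signal. The other 5 members of the ring were not called. Of the tested neighbours within 1 Mb, TOM1 had a mean of 47.6 CPM in zdna2 and 117 in zdna3, and HMOX1 45.7 and 98.5. HMGXB4 (153 and 188) and RBFOX2 (135 and 174) differed less, and MYH9 went the other way (2317 and 2198). Whether the higher level is particular to MCM5 was not tested. The MCM5 call was lost without zdna2 CC replicate 2, zdna2 CL replicate 1 or any 1 of the 4 zdna3 libraries, with limma adjusted p from 0.0643 to 0.116.

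RFC1, the large subunit of the clamp loader (hg19 chr4:39289076-39367982, minus strand), had 160 and 154 CPM in zdna1 CC and 217 and 127 in zdna1 CL. In zdna2 it had 227 and 168 CPM in CC and 237 and 212 in CL, and in zdna3 it had 107 and 119 in CC and 66.3 and 158 in CL. In zdna4 it had 135 and 317 CPM in CC and 186 and 201 in CL. All 4 zdna3 libraries lay under all 4 of zdna2, as they did for 5.87% of all genes tested. The log2 difference was -0.90 (SE 0.27, limma adjusted p = 0.0346), from 29 reads against 121, a ratio of 0.505 (0.324 to 0.762). It was lost without zdna2 CC replicate 1, zdna2 CL replicate 1, either zdna3 CC replicate or zdna3 CL replicate 1, with limma adjusted p from 0.0781 to 0.271.

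With zdna3 over zdna2, 22 of the 31 genes were positive, with a median log2 difference of 0.19 beside -0.04 over all genes. It was 0.08 without zdna2 CC replicate 1, 0.10 without zdna3 CC replicate 2 and 0.28 without zdna2 CC replicate 2. With a filter of 20 CPM it was 0.05 over 43 genes, and with no filter -0.04 over all 45. On the scale of the values as deposited it was -1.15, beside -1.36 over all genes. CDT1 had 1.40 (SE 0.50, limma adjusted p = 0.0849), the largest positive value of the 31. With zdna3 over zdna1 the median of the 31 was -0.05 and that of all genes -0.05, and it moved between -0.14 and 0.01 when 1 library was left out. There PCNA had -1.04 (SE 0.34, limma adjusted p = 0.0673) and POLD1 -0.92 (SE 0.40, limma adjusted p = 0.196). PCNA shares 373 exon bases with PCNA-AS1 on the other strand, which had 0 reads in all libraries.

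Comparisons of zdna4 with zdna1 and zdna2 gave no call among the 31 genes with limma or edgeR, where limma called 0.691% and 2.48% of all genes, and 1 of the 31 had an unadjusted p under 0.05 in each, beside 9.89% and 15.6% of all genes. The median log2 difference was -0.18 to zdna1 and 0.15 to zdna2, beside -0.05 for all genes in both. The first was -0.09 without zdna4 CC replicate 2. The second was 0.10 without zdna2 CC replicate 1 or without zdna4 CC replicate 1, and its sign turned to -0.06 within the CC libraries, to -0.01 with a filter of 20 CPM and to -0.11 with no filter. The smallest p was that of TYMS in both, with -1.11 (SE 0.34, limma adjusted p = 0.126) to zdna1 and -0.92 (limma adjusted p = 0.141) to zdna2, where the zdna4 CC library at 0 reads enters again; without that library the difference to zdna2 was 0.15.

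Other genes of the cell cycle were read beside these. Of 52 other replication genes 29 were tested, and limma called 1 in 1 pair of numbers: SSRP1, a subunit of the histone chaperone FACT, was lower in zdna4 than in zdna3 by a log2 difference of -0.64 (SE 0.20, limma adjusted p = 0.043), where limma called 2.91% of all genes lower. In zdna2 over zdna1 the median of these 29 was -0.04, with 11 positive. Of 7 cell cycle inhibitor genes only CDKN1A, which encodes p21, was tested. CDKN1A was lower in zdna3 than in zdna1 (-0.88, SE 0.23, limma adjusted p = 0.0128), where limma called 4.49% of all genes and 2.27% lower.

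Of 58 replication-dependent histone genes, whose messages are made in S phase, 29 were tested. In zdna3 over zdna1, 11 of the 29 were called higher and none lower, beside 2.22% of all genes called higher. Their median log2 difference was 0.70, where the median of the 31 replication genes was -0.05. H1-2 had 0.86 (SE 0.12, limma adjusted p = 3.678e-07) and H2AC6 1.33 (SE 0.24, limma adjusted p = 7.33e-05). In zdna3 over zdna2, 11 were called higher and none lower, beside 2.81% of all genes called higher, with a median of 0.62. These levels are relative to other genes. On the scale of the values as deposited the median of all genes was -1.48 in zdna3 over zdna1 and -1.36 in zdna3 over zdna2. The histone genes were not fitted on that scale. In zdna4, 3 were called higher than in zdna1 and 4 higher than in zdna2, beside 0.237% and 1.23% of all genes, with medians of 0.45 and 0.42. Against zdna3, 4 were called lower in zdna4, beside 2.91% of all genes, with a median of -0.14. Between the arms 1 was called, H1-2, lower in CL in zdna2 (-0.54, SE 0.12, limma adjusted p = 0.0351), where the median of the 29 was -0.32. Histone genes are near-identical copies, so single genes among them are uncertain.

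Of 45 mitosis genes 39 were tested. In zdna4, limma called 3 higher in CL than in CC, beside 0.907% of all genes: KIFC1, a spindle motor (2.91, SE 0.61, limma adjusted p = 0.00513), TOP2A, which untangles DNA (1.16, SE 0.28, limma adjusted p = 0.0258), and CKAP2L, a spindle protein (2.34, SE 0.64, limma adjusted p = 0.0495, edgeR adjusted p = 0.276). These 3 calls rest on the shallow zdna4 CC libraries, where 1 read was worth 26.99 and 26.41 CPM. In zdna4 over zdna1, 36 of the 39 were positive with a median of 0.37 and 2 were called, beside 0.237% of all genes called higher: MKI67, the proliferation marker Ki-67 (0.57, SE 0.12, limma adjusted p = 0.00259), and CENPF, a kinetochore protein (0.60, SE 0.15, limma adjusted p = 0.0345). In that pair 8 of the 31 replication genes were positive, and 44.7% of all genes tested. In zdna4 over zdna2, 4 mitosis genes were called higher with a median of 0.48, and in zdna4 over zdna3, 2 were called higher with a median of 0.39, beside 1.23% and 1.84% of all genes. Outside zdna4, 1 was called lower in zdna3 than in zdna1, beside 2.27% of all genes. Against zdna2, 1 was higher and 1 lower in zdna3, beside 2.81% and 3.2%. For CL over CC, 1 was higher on average and 2 were unequal between numbers, beside 0.345% and 0.864%. Within zdna2 the median of CL over CC was -0.27, with 11 of the 39 positive.

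**Figure D5:**
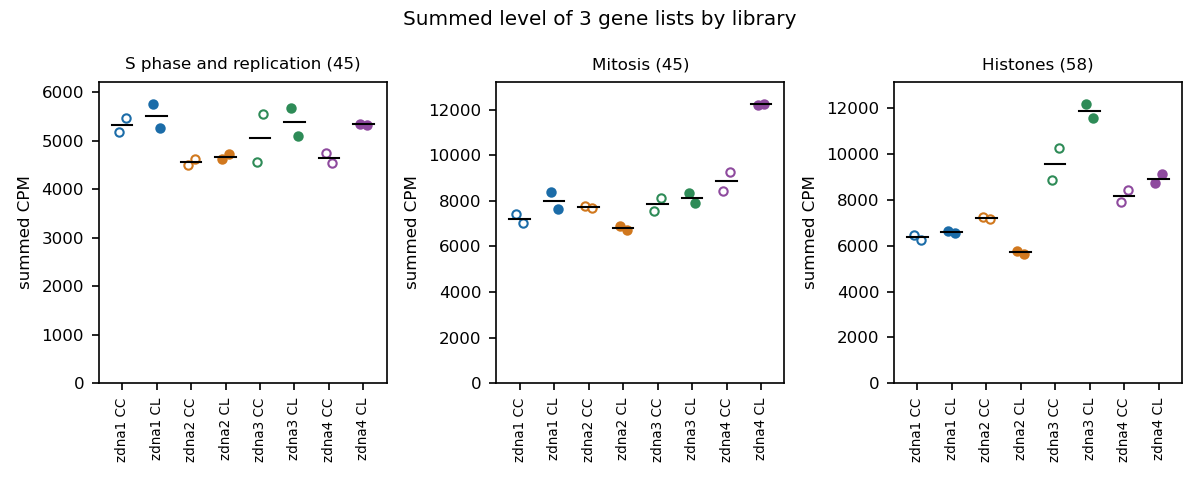
Summed CPM of the 45 S phase and replication genes, 45 mitosis genes and 58 histone genes (vertical axes, from 0) in each library (1 point each, open for CC and filled for CL), with a black line at the mean of each group of 2. The replication genes range from 4494 to 5761 CPM, while the mitosis genes reach 12260 CPM in zdna4 CL and the histone genes 12200 CPM in zdna3 CL.

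The summed levels place the 3 lists side by side. The replication genes differed little between libraries, from 4494 to 5761 CPM. The mitosis genes summed to 6721 to 9271 CPM in 14 libraries and to 12210 and 12260 CPM in the 2 of zdna4 CL. The histone genes summed to 5639 to 7237 CPM in zdna1 and zdna2, 7933 to 9118 in zdna4 and 8863 to 12200 in zdna3.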

How the data were processed

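RNA of 16 U2OS libraries was extracted with Trizol and made into libraries with an Abclonal kit, per the labels' protocols. Per the submitters' processing notes, Trim Galore 0.6.6, STAR and bedtools 2.29.2 were used, with the builds hg19 and dm6 in no stated role. Per the file headers, featureCounts 2.0.1 counted paired exon reads per gene, without strand, on hg19 plus 1 extra contig per number. The deposited values are a scaled signal: counts multiplied by 1 constant per library, whose origin is not given in the sources used here. After division by that constant 99.99% or more of the values lay within 0.1 of a whole read.

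CPM were computed from the recovered reads of human genes with TMM factors (edgeR 4.0.16). Since the deposited files hold no counts as such, limma 3.58.1 on log2(CPM + 10) was the main test, over the 4632 genes whose mean reached 50 CPM, with 8 group means, array weights per group and a mean-variance trend, two-sided, with Benjamini-Hochberg adjustment at 0.05 in each of 13 comparisons. On the recovered reads, edgeR's quasi-likelihood test called 5 of the 31 genes among numbers, and that test and DESeq2 1.42.0 were run as alternatives, together with other scalings, pseudocounts, filters and sets of libraries. The fit was checked on simulated data.

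Replicates of a group spread little beyond counting error in human-gene reads (chi-square per degree of freedom 0.981 to 1.1), and in 3 of the 8 groups, zdna1 CC, zdna2 CL and zdna3 CC, the chi-square test found no difference (p = 0.0992, 0.281 and 0.744). The share of reads on the contig differed in each of the 8 pairs, so each was kept as a library of its own. Intervals are exact at 95% and, like the limit of 3 counts for a count of 0, cover counting error only. The genes and lists were chosen with earlier results of these data known. Named with values are all genes called, up to 4 of the 45 with the smallest p in a comparison, the 10 with the highest mean CPM, the highest of each role and those next to the filter. Promoter windows are from RefSeq (GRCh38.p14) and were matched by symbol. The hg19 genome was not used here.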

Additional observations from a re-analysis of the deposited data

Results flagged for a closer look

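Each number's files hold 1 contig beside the human genes, which enters no comparison above. It had reads in every library, from 514 in the one with the fewest, zdna1 CL replicate 2, where it was 0.326% of the reads on genes and contig, up to 87.7% of them in a zdna3 CC library. The signal was raised for a closer look because it lies in data outside the human genes and above the limit that a count of 0 allows.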

How the results depend on the processing

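Counts of called genes among the 31 moved by more than 1.5 times as follows. For CL over CC in zdna4 the count was 0 with edgeR, DESeq2, a pseudocount of 2 or 50, no filter, no array weights or that number's libraries alone. For any difference among numbers it was 5 with edgeR, 1 with DESeq2, a pseudocount of 2, no filter, no array weights or CL libraries alone, and 0 with CC libraries alone. For zdna2 over zdna1 it was 1 with a pseudocount of 2 or a filter of 100 CPM, and 0 with DESeq2, no filter, no array weights or either arm alone. For zdna3 over zdna1 it was 0 with DESeq2, which gave POLA1 no adjusted p, and 0 with CL alone. For zdna3 over zdna2 it was 1 with DESeq2, no filter or CL alone and 0 with CC alone. For zdna4 over zdna2 it was 1 with CL alone. For zdna4 over zdna3 it was 0 with DESeq2, a pseudocount of 50, a filter of 100 CPM, no filter or CC alone.

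On the deposited scale all genes shift together: their median log2 difference became 0.72 for CL over CC in zdna3, 0.44 in zdna4, 0.34 on average, -1.48 for zdna3 over zdna1, -1.36 for zdna3 over zdna2 and 1.38 for zdna4 over zdna3. There the counts were 8 for CL over CC in zdna3, 9 for the average, 4 for unequal arm differences, 28 for any number, 31 for zdna3 over zdna1, and 26 each for zdna3 over zdna2 and zdna4 over zdna3. The median of the 31 genes in zdna3 over zdna1 was -1.53 there, beside -1.48 over all genes. These counts go with a shift of all genes and are not a result about the 31 genes. Signs turned for MCM5 in zdna3 over zdna1 (-0.78) and zdna3 over zdna2 (-0.48), and for CCNE1 (0.52) and CHAF1A (0.70) in zdna4 over zdna3. Elsewhere they turned for PCNA in zdna4 over zdna1 (0.0714) and TYMS in zdna4 over zdna2 (0.27) with CL alone, for TYMS in zdna4 over zdna2 without zdna4 CC replicate 1 (0.15, other such fits down to -1.99), and for CDT1 in CL over CC in zdna4 without zdna4 CC replicate 2 (-0.16, other such fits up to 3.05). The cause was not tested.

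Leaving out 1 library at a time gave 0 to 1 called genes for CL over CC in zdna4, the average, unequal arm differences, zdna4 over zdna1, zdna4 over zdna2 and zdna4 over zdna3. It gave 1 to 4 for any number, 0 to 2 for zdna2 over zdna1, 1 to 2 for zdna3 over zdna1 and 1 to 3 for zdna3 over zdna2. Replicate numbers did not pair the libraries: correlations of deviations ran from -0.0673 to 0.0567 over 28 pairs, and the fit with a replicate block left 3 genes called among numbers and changed no call of the 78 results it was run for. Averaging zdna1 to zdna3 without zdna4, chosen after seeing the data, left 0 called for CL over CC. With 172 to 1670 reads on the 45 genes per library, depth limits these comparisons to large differences, and genes under 50 CPM were not tested.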
